A study of Arabidopsis thaliana with 4 samples.

Results

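The expansin genes of Arabidopsis thaliana were compared between 2 lines of the Columbia accession (Col-0) in whole seedlings. The family was taken as 31 listed genes: 22 alpha-expansins (EXPA), 5 beta-expansins (EXPB), 3 expansin-like A genes (EXLA) and 1 expansin-like B gene (EXLB). Each was read from the gene model that names it and holds an annotated transcript, 31 of 36251 models in all. Another Col-0, a line labelled wild type, gave 2 libraries, and SALK Col-0, also labelled wild type, gave 2 more. According to the labels these are biological replicates of seedlings from 2-week-old plants kept in soil under long days at 22 °C. How many plants went into a library is not stated in the labels, and p-values then measure only the spread between these libraries. All plants carried the same accession background, and the labels name no transgene, mutation or treatment. The comparison asks how far transcript levels vary between Col-0 stocks.

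Expansins are secreted proteins that loosen the plant cell wall at acidic pH without cutting its polymers, by letting cellulose microfibrils and the glycans that tether them slip under turgor. Alpha-expansins act in acid growth of stems, leaves, roots and root hairs, and the family also holds beta-expansins. It further holds the expansin-like A and B proteins, and for these expansin-like proteins wall-loosening activity has not been shown. Plasma membrane proton pumps lower the pH at which expansins work, and these pumps are held back by PP2C.D phosphatases.

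Levels are given as FPKM, which is normalised for model length and library size, so levels of different genes can be set side by side. Line differences subtract SALK Col-0 from Another Col-0 on the log2(FPKM + 1) scale, which understates changes of low genes. Of the 31 members, 22 averaged 1 FPKM or more across the libraries and entered the test of 20634 models, and 9 did not. The tested models had a median of 13.2 FPKM (replicate 1) and 14.1 FPKM (replicate 2) in Another Col-0, against 13.2 FPKM (replicate 1) and 13.8 FPKM (replicate 2) in SALK Col-0. Read totals were not used here, so no counting interval is given. Of 5 leaf markers 4 were tested, with a median difference of -0.04 and 1 gene apart between the lines, and they summed to 20182 and 20822 FPKM in Another Col-0 and 18719 and 20862 FPKM in SALK Col-0. The gene apart, RBCS1A, was read from a model running from 24757856 to 25049511 on chromosome 1. Its deposited limits in replicate 1 of Another Col-0 were 15.6 to 22773 FPKM. The models of CAB3 and LHCB2.1 hold 2 and 3 genes, so the sum is not that of single genes. The fifth leaf marker, the light-harvesting gene CAB1 (AT1G29930), carried a too-deep status and was listed at 0, so a value of 0 in this table is not by itself the absence of a transcript.

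In the line comparison 0 of 22 expansin models were higher and 0 were lower at an adjusted p under 0.05 (limma, Benjamini-Hochberg over 20634 models), where 0% of all models were called in either direction. The smallest adjusted p of a member was 0.199. At an unadjusted p under 0.05 (limma) there were 5 of 22 members (22.7%), against 16.7% of all models. A fit of the 18432 annotated models alone gave the same 5 members, against 21.6% of those models. EXLA1, EXLA2 and EXPA16 had higher values in Another Col-0, where 10.2% of all models and 12.5% of annotated models did at that p. EXPA8 and EXPB1 had lower values, where 6.45% of all models and 9.13% of annotated models did. By at least 1.5-fold in both replicate pairs, 2 members were higher (EXLA1 and EXPA16) where 2.35% of models were, and 2 were lower (EXPA8 and EXPB1) where 1.06% of models were. The median difference of the 22 models was -0.003, beside 0.02 for all tested models. Within replicate 1 it was 0.05, within replicate 2 it was -0.04, and it lay between -0.15 without SALK Col-0 replicate 1 and 0.19 without SALK Col-0 replicate 2. In whole seedlings, a smaller share of cells that express a gene and less RNA per cell cannot be told apart.

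The promoters of EXLA1 and EXPA8 are shown because these members had the largest higher and the largest lower difference in both replicate pairs. Each runs from 250 bases before to 50 bases into the gene model, 5′ to 3′ on the strand of the gene, read from the TAIR10.1 assembly at the table's coordinates. EXLA1 is at chr3:16895916-16896215 on the plus strand and EXPA8 at chr2:16950508-16950807 on the minus strand. Capitals mark matches, on either strand, to the searched motifs CACGTG (G-box), TTGACC and TTGACT (W-box), TGTCTC (auxin response element), AAAATATCT (evening element), and CGTGTG and CGTGCG (brassinosteroid response elements).
EXLA1: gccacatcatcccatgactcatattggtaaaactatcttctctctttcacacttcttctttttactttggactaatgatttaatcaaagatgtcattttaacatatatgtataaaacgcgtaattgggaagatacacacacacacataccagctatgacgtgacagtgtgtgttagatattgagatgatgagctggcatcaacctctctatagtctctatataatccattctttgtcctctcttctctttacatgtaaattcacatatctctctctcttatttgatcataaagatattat
EXPA8: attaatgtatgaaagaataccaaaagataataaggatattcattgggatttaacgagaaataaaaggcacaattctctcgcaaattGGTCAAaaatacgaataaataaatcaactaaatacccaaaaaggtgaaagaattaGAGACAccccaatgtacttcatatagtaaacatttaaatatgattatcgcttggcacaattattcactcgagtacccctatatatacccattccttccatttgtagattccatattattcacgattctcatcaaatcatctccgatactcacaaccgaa
The EXLA1 window held 0 matches. The EXPA8 window held 2, a TTGACC and a TGTCTC, both on the strand opposite to the gene. Over the family TTGACC was found in 6 of 31 windows, where 13.5% of 31858 promoters of the same length held it, and TGTCTC in 6 of 31, where 15.4% did. CACGTG was found in 1 member (7.33% of all promoters), TTGACT in 5 (21.1%), AAAATATCT in 0 (2.45%), CGTGTG in 2 (6.66%) and CGTGCG in 3 (1.92%). The CGTGCG members were EXPA7, EXPA18 and EXPB3. A match is a run of letters and not a shown binding site, and the motifs do not overlap each other in these windows.

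**Figure D1:**
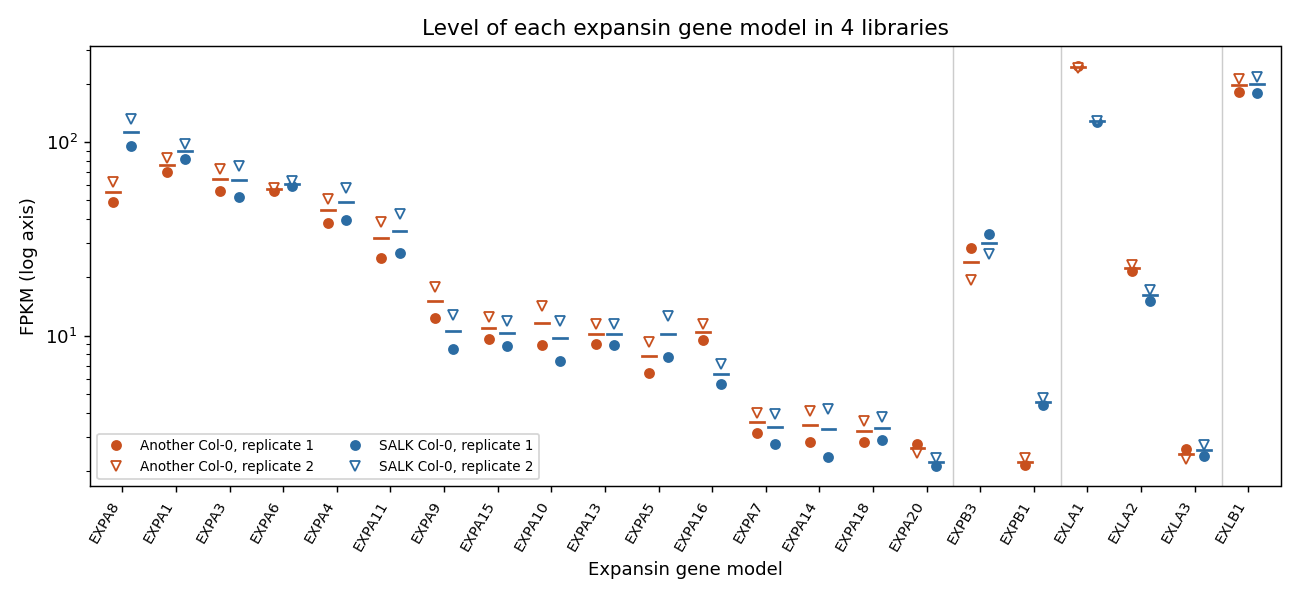
FPKM (vertical, log axis) of the 22 tested expansin models, ordered by subfamily and level. Each gene has Another Col-0 in orange on the left and SALK Col-0 in blue on the right, filled circles for replicate 1, open triangles for replicate 2 and a bar at the mean of 2 libraries. EXLA1 stands highest in Another Col-0, and for most alpha-expansins the replicate 2 triangle lies above the replicate 1 circle in both lines.

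The alpha-expansins were expressed over a wide range. EXPA8 (AT2G40610, chromosome 2, 16948863 to 16950557) had 49.2 and 61.9 FPKM in Another Col-0, against 95.5 and 131 FPKM in SALK Col-0. Both Another Col-0 libraries were below both SALK Col-0 libraries, and the ratio of the means was 0.490. Its log2 difference was -1.01 ± 0.233 (SE), with -0.94 in pair 1 and -1.07 in pair 2 (limma, adjusted p = 0.239). In the replicate 2 pair the deposited upper limit of Another Col-0, 82.4 FPKM, lay under the deposited lower limit of SALK Col-0, 85.1 FPKM, as for 0.0388% of all models. In the replicate 1 pair the limits, 27.98 to 77.0 FPKM in Another Col-0 and 56.8 to 155 FPKM in SALK Col-0, overlapped. No other tested member had limits apart in either pair. Among all models 0.136% had higher and 0.0291% lower limits apart in pair 1, 0.15% had higher ones apart in pair 2, and 0.102% had higher and 0.0194% lower limits apart in both pairs. EXPA8 was at rank 6 of the 31 members by mean level in Another Col-0 and at rank 3 in SALK Col-0. In both lines the members above it include the EXLB1 model, which holds 2 genes. The neighbours of EXPA8 in that order overlapped it in the libraries of each line.

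EXPA16 (AT3G55500, chromosome 3, 20574831 to 20576182) had the opposite sign, with 9.51 and 11.5 FPKM in Another Col-0 and 5.59 and 7.11 FPKM in SALK Col-0. The lines did not overlap, and the ratio was 1.65. The difference was 0.65 ± 0.167 (SE), with 0.67 and 0.62 in pairs 1 and 2 (limma, adjusted p = 0.259). EXPA9 (AT5G02260), with 12.4 and 17.8 FPKM in Another Col-0 against 8.52 and 12.7 FPKM in SALK Col-0, was higher within each pair (0.49 and 0.46). Its lines overlapped, because replicate 2 of SALK Col-0 was above replicate 1 of Another Col-0, and its difference of 0.47 ± 0.297 (SE) had an adjusted p of 0.536 (limma).

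Besides EXPA8, the alpha-expansins with the highest mean levels were EXPA1, EXPA3, EXPA6, EXPA4 and EXPA11, in that order in each line. EXPA1 (AT1G69530), known for roles in leaf growth and stomatal movement, had 69.97 and 82.5 FPKM in Another Col-0 and 82.2 and 97.9 FPKM in SALK Col-0. It was lower within each pair (-0.23 and -0.24), while the libraries of the lines overlapped by a narrow margin. EXPA3 (AT2G37640) had 55.6 and 73.0 FPKM in Another Col-0 against 52.0 and 75.3 FPKM in SALK Col-0, with a difference of 0.03 ± 0.270 (SE). EXPA6 (AT2G28950) had 56.0 and 58.2 FPKM in Another Col-0 and 59.0 and 62.9 FPKM in SALK Col-0, a small difference of -0.09 ± 0.0645 (SE) without overlap (limma, adjusted p = 0.578). EXPA4 (AT2G39700) had 38.3 and 50.7 FPKM in Another Col-0 against 39.7 and 57.9 FPKM in SALK Col-0. EXPA11 (AT1G20190) had 25.2 and 38.8 FPKM in Another Col-0 against 26.6 and 42.7 FPKM in SALK Col-0. Its deposited limits ran from 0 to 50.4 and 76.9 FPKM in Another Col-0 and from 0 to 64.6 and 91.1 FPKM in SALK Col-0, so its level is uncertain. The libraries of both lines overlapped for EXPA4 and EXPA11, with differences of -0.12 ± 0.275 and -0.10 ± 0.367 (SE).

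At intermediate levels, EXPA5 (AT3G29030), which has a role in growth promoted by brassinosteroids, had 6.41 and 9.24 FPKM in Another Col-0 and 7.76 and 12.6 FPKM in SALK Col-0. It was lower in both pairs (-0.24 and -0.41), but its lines overlapped. EXPA10 (AT1G26770), which promotes growth of leaves and petioles, had 8.996 and 14.2 FPKM in Another Col-0 against 7.40 and 11.96 FPKM in SALK Col-0, with 0.25 and 0.23 in the pairs. It was higher within each pair and overlapped between the lines. EXPA13 (AT3G03220) had 9.02 and 11.5 FPKM in Another Col-0 and 8.97 and 11.4 FPKM in SALK Col-0, a difference of 0.005 ± 0.190 (SE). EXPA15 (AT2G03090) had 9.56 and 12.4 FPKM in Another Col-0 against 8.80 and 11.9 FPKM in SALK Col-0. Both overlapped between the lines, which does not show that the lines are equal.

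The root hair expansins EXPA7 and EXPA18, which are expressed in hair cells, were low and close in both lines. EXPA7 (AT1G12560) had 3.15 and 3.98 FPKM in Another Col-0 against 2.77 and 3.94 FPKM in SALK Col-0, and EXPA18 (AT1G62980) had 2.83 and 3.63 FPKM in Another Col-0 against 2.88 and 3.78 FPKM in SALK Col-0. Their differences were 0.08 ± 0.207 and -0.03 ± 0.184 (SE), and the lines overlapped for both. Of 5 other root hair markers, 2 were tested, with a median difference of -0.19, and overlapped between the lines. The cell wall protein gene LRX1 had 1.54 and 2.26 FPKM in Another Col-0 and 1.97 and 3.79 FPKM in SALK Col-0, and the proline-rich protein gene PRP3 had 8.72 and 14.3 FPKM in Another Col-0 and 7.67 and 15.7 FPKM in SALK Col-0. Below the filter, RHD6 had 0.567 and 0.528 FPKM in Another Col-0 and 0.897 and 1.06 FPKM in SALK Col-0, and RSL4 had 0.748 and 0.654 FPKM in Another Col-0 and 0.945 and 0.874 FPKM in SALK Col-0. Both are transcription factor genes of root hair growth, and both had lower values in Another Col-0 without overlap. The fifth marker, COBL9, overlapped. The summed level of the 5 markers was 12.5 and 18.7 FPKM in Another Col-0 against 12.3 and 22.5 FPKM in SALK Col-0, higher in replicate 2 of both lines, as were EXPA7 and EXPA18.

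EXPA14 (AT5G56320) had 2.81 and 4.06 FPKM in Another Col-0 and 2.36 and 4.20 FPKM in SALK Col-0, which overlapped. EXPA20 (AT4G38210) had 2.76 and 2.48 FPKM in Another Col-0 and 2.12 and 2.33 FPKM in SALK Col-0, without overlap, at a difference of 0.17 ± 0.112 (SE; limma, adjusted p = 0.563). EXPA20 lies antisense to AT4G38215, a long noncoding RNA gene, and 75.5% of its 101-nt stretches, the read length, also occur in that transcript, so its value is uncertain where strand is not marked.

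Of the 6 alpha-expansins below the filter, EXPA17 (AT4G01630), which takes part in lateral root formation, came nearest to it. It had 0.744 and 0.937 FPKM in Another Col-0 and 0.395 and 0.564 FPKM in SALK Col-0, without overlap, and was not tested. EXPA2 (AT5G05290), known from seed germination, had 0.106 and 0.160 FPKM in Another Col-0 and 0.313 and 0.459 FPKM in SALK Col-0. EXPA12 (AT3G15370) had 0.0597 and 0.0561 FPKM in Another Col-0 and 0.0212 and 0.0230 FPKM in SALK Col-0. EXPA22, EXPA23 and EXPA24 (AT5G39270, AT5G39280 and AT5G39310), which stand close together on chromosome 5, were listed at 0 in all 4 libraries. Of the 101-nt stretches of EXPA22 and EXPA23, 20.1% and 30.2% also occur in the neighbouring genes AT5G39290 and AT5G39300. AT5G39290 was itself listed at 0 in all 4 libraries, and AT5G39300 at 0 except for 0.034 FPKM in replicate 2 of SALK Col-0. Over the 22 alpha-expansins the summed level was 363 and 457 FPKM in Another Col-0 and 413 and 551 FPKM in SALK Col-0, which overlapped, and without EXPA8 it was 313 and 395 FPKM in Another Col-0 and 317 and 420 FPKM in SALK Col-0.

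Both tested beta-expansins had lower means in Another Col-0. EXPB1 (AT2G20750, chromosome 2, 8941119 to 8942689) had 2.15 and 2.32 FPKM in Another Col-0 against 4.38 and 4.75 FPKM in SALK Col-0. The lines stood well apart compared with the spread within each, with a ratio of 0.490. Its difference was -0.78 ± 0.0945 (SE), at -0.77 and -0.79 in pairs 1 and 2, and did not pass (limma, adjusted p = 0.202). Its deposited limits were wide, 0.0924 to 4.35 FPKM and 0.128 to 4.65 FPKM in Another Col-0 and 1.07 to 7.70 FPKM and 1.09 to 8.42 FPKM in SALK Col-0. EXPB3 (AT4G28250) had 28.5 and 19.4 FPKM in Another Col-0 and 33.5 and 26.4 FPKM in SALK Col-0. It was lower within each pair (-0.23 and -0.43), and its lines overlapped, since replicate 1 of Another Col-0 was above replicate 2 of SALK Col-0. EXPB2 (AT1G65680) was at 0.0701 and 0.0600 FPKM in Another Col-0 and 0 and 0.0338 FPKM in SALK Col-0, and EXPB4 (AT2G45110) and EXPB5 (AT3G60570) were listed at 0 throughout.

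**Figure D2:**
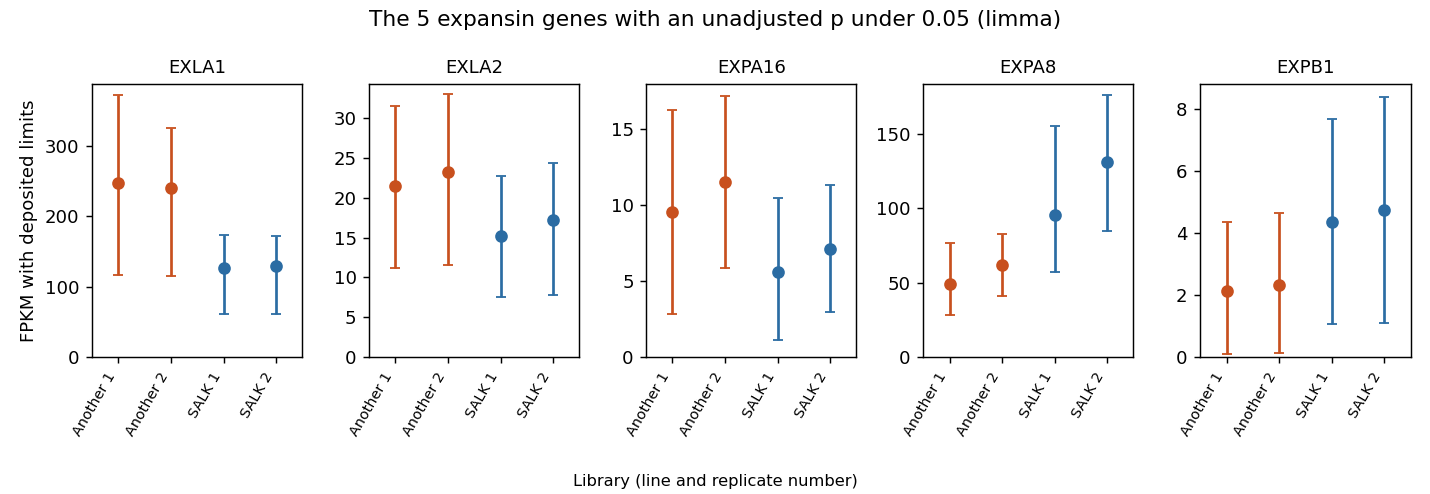
FPKM of the 5 expansin genes with an unadjusted p under 0.05, with a panel per gene and a vertical axis from 0. Points are single libraries, Another Col-0 in orange on the left and SALK Col-0 in blue on the right, and bars run from the lower to the upper limit deposited with each value. The limits of the lines are apart only for EXPA8 in the replicate 2 pair (82.4 against 85.1 FPKM).

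The expansin-like A genes held the member with the smallest p. EXLA1 (AT3G45970, chromosome 3, 16896166 to 16897308) had 248 and 240.3 FPKM in Another Col-0 and 127 and 129 FPKM in SALK Col-0. Both Another Col-0 libraries were about equally high, and the ratio of the means was 1.91. The difference was 0.93 ± 0.0540 (SE), with 0.96 and 0.89 in pairs 1 and 2 and between 0.91 and 0.95 with any single library left out, and did not pass (limma, unadjusted p = 0.000424, adjusted p = 0.199). By mean level EXLA1 was at rank 1 of the 31 members in Another Col-0 and at rank 2 in SALK Col-0. The only member above it in SALK Col-0 was the EXLB1 model, which holds 2 genes. EXLA2 (AT4G38400, chromosome 4), loss of which alters resistance to the fungus Botrytis, had 21.5 and 23.2 FPKM in Another Col-0 and 15.2 and 17.2 FPKM in SALK Col-0. The lines did not overlap, and its difference was 0.44 ± 0.0943 (SE), with 0.48 and 0.41 in the pairs (limma, adjusted p = 0.226). EXLA3 (AT3G45960), which lies 2265 bases before EXLA1 on the same strand, had 2.59 and 2.31 FPKM in Another Col-0 and 2.39 and 2.73 FPKM in SALK Col-0. Its lines overlapped, at -0.04 ± 0.120 (SE), and the difference between its contrast and that of EXLA1 was not tested.

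The last 188 bases of the EXLA1 model overlap HTB9 (AT3G45980), a histone H2B gene on the opposite strand. HTB9 had 199 and 209 FPKM in Another Col-0 and 182 and 180.4 FPKM in SALK Col-0, with 0.13 and 0.21 in the pairs, where EXLA1 had 0.96 and 0.89. Reads of the shared stretch cannot be assigned by strand, and their part in the EXLA1 value was not tested. Of the 101-nt stretches in the RefSeq transcripts of EXLA1, EXLA2 and EXLA3, 0 occur in another gene's transcript, and the same holds for 28 of the 31 members. That count uses RefSeq transcripts and not the table's models, in which the 188 bases shared by EXLA1 and HTB9 exceed the read length.

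**Figure D3:**
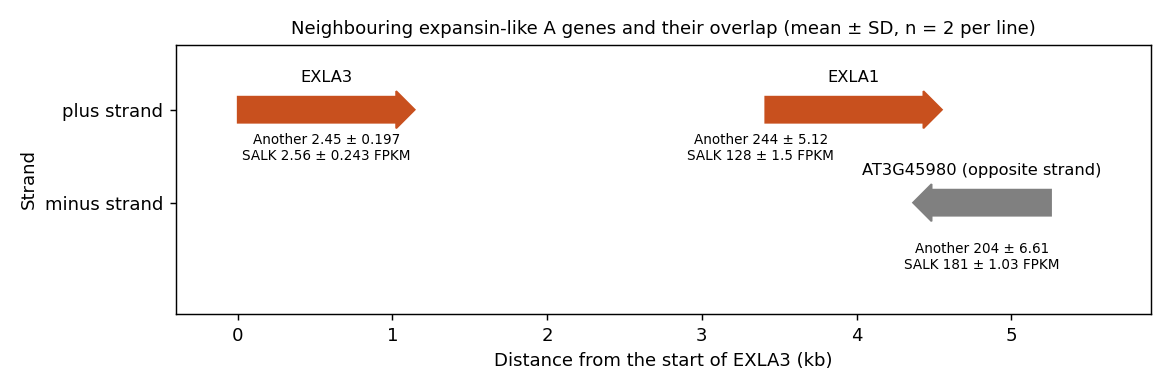
Map of EXLA3, EXLA1 and the overlapping HTB9 gene (AT3G45980) by distance in kb from the start of EXLA3. Arrows point in the direction of transcription, with the mean ± SD of 2 libraries of each line. EXLA1 averaged 244 ± 5.12 FPKM in Another Col-0 and 128 FPKM in SALK Col-0, and EXLA3 averaged 2.45 FPKM in Another Col-0 and 2.56 FPKM in SALK Col-0.

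The model of EXLB1 (AT4G17030) pools it with CLPR4 (AT4G17040), a gene for a subunit of the chloroplast Clp protease, so its value is not that of EXLB1 alone. The pooled model had 183 and 211 FPKM in Another Col-0 and 180.4 and 217 FPKM in SALK Col-0, at a difference of -0.01 ± 0.147 (SE). The lines overlapped.

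**Figure D4:**
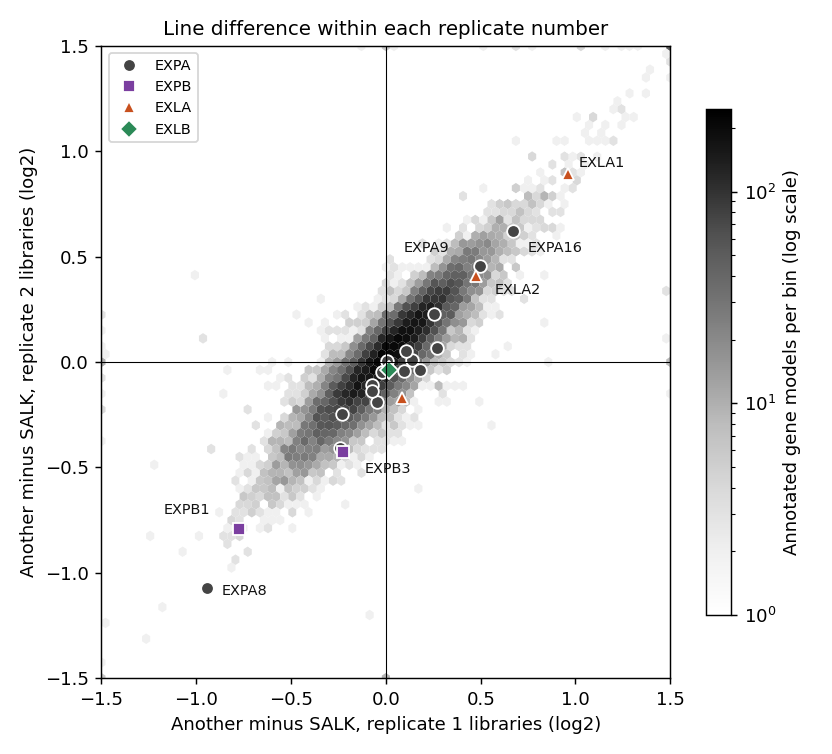
Line difference (Another Col-0 minus SALK Col-0, log2) in the replicate 1 pair on the horizontal axis and in the replicate 2 pair on the vertical axis. Coloured symbols are the 22 tested expansin models, and grey bins count 18432 annotated models, with values beyond 1.5 drawn at the edge. EXLA1 (0.96 and 0.89) and EXPA16 lie at the upper right, EXPA8 (-0.94 and -1.07) and EXPB1 at the lower left, and most members near 0.

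Counted by libraries, the lines did not overlap for 4 tested members with higher values in Another Col-0 (EXLA1, EXLA2, EXPA16 and EXPA20) and for 3 with lower values (EXPA6, EXPA8 and EXPB1). These are 18.2% and 13.6% of the 22, against 26.2% and 20.8% of all tested models. The libraries of the lines overlapped for the other 15. Within the pairs 9 members were higher in both, 9 were lower in both and 4 had opposite signs, where 42.9% of all models were higher and 33.9% lower in both pairs. With a library left out, a line is held by 1 library, which is assumed to vary like those of the other line, and 1 residual degree of freedom remains. At an unadjusted p under 0.05 (limma) these fits gave EXLA1, EXPA8 and EXPB1 without SALK Col-0 replicate 1, where 5.15% of all models were under it, and EXLA1, EXLA2, EXPA16 and EXPB1 without SALK Col-0 replicate 2, where 6.25% were. They gave EXLA1 and EXPB1 without Another Col-0 replicate 1 (4.23% of all models) and without Another Col-0 replicate 2 (4.49%).

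The spread within a line had a pattern shared by most of the family. In both lines the library numbered 2 had the higher value for 18 of 22 members (81.8%), against 42.9% of all tested models, and the lower value for 1 of 22, EXPB3, against 41.5%. Of 16 tested alpha-expansins 15 were higher in replicate 2 of both lines, and the other, EXPA20, was not in Another Col-0. The median difference of replicate 2 minus replicate 1 over the tested alpha-expansins was 0.34 in Another Col-0 and 0.43 in SALK Col-0, where that of all tested models was 0.01 and -0.01. EXPA10 had 0.60 in Another Col-0 and 0.63 in SALK Col-0, and EXPA11 had 0.60 in Another Col-0 and 0.66 in SALK Col-0. EXPB3 had -0.53 in Another Col-0 and -0.33 in SALK Col-0. EXLA1, at -0.04 in Another Col-0 and 0.02 in SALK Col-0, was nearly the same in both libraries of each line. For 14 of 22 members (63.6%) the difference between replicate numbers was larger than that between lines, against 51.1% of all models. The fit has line as its only term, so this shared spread is part of each SE and p given here. A fit with the replicate number as a block is given further below.

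**Figure D5:**
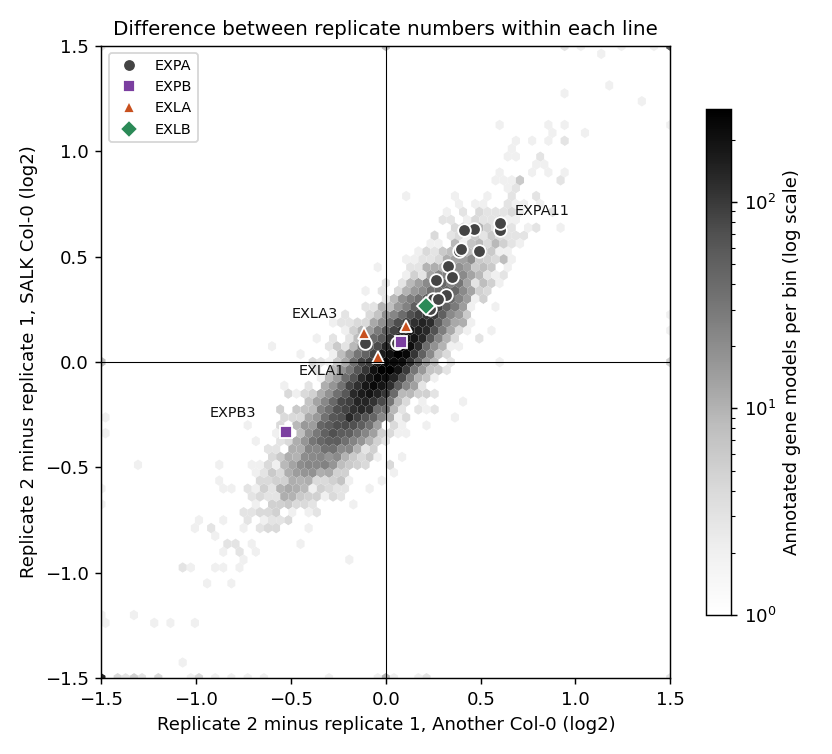
Difference between replicate 2 and replicate 1 (log2) in Another Col-0 on the horizontal axis and in SALK Col-0 on the vertical axis. Coloured symbols are the 22 tested expansin models and grey bins count 18432 annotated models, with values beyond 1.5 drawn at the edge. Most alpha-expansins lie in the upper right, up to EXPA11 at 0.60 and 0.66, EXPB3 lies at the lower left, and EXLA1 near 0.

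Some members share a bundle with other models, and Cufflinks divides reads within one. For the 16 tested members alone in their bundle, replicate 2 was higher in both lines for 14, against 41.4% of the 11836 annotated models alone in theirs. Inside an intron of EXPA3 an unannotated model of 102 nt was listed at 8191 FPKM in replicate 1 and 0 in replicate 2 of Another Col-0, and at 10672 FPKM in replicate 1 and 0 in replicate 2 of SALK Col-0. An intronic model of 123 nt in EXPA9 had 129 and 0 FPKM in Another Col-0 and 84.4 and 0 FPKM in SALK Col-0. These models are close to the 101-nt read length and lie outside the exons of both genes. EXPA11 lies within the span of a model of 212096 bases in a bundle of 71 models, and EXPA18 within one of 113921 bases in a bundle of 31. The model around EXPA11 was listed at 1130 and 1140 FPKM in Another Col-0 and 1352 and 1158 FPKM in SALK Col-0. That around EXPA18 had 15.7 and 12.4 FPKM in Another Col-0 and 66.3 and 10.6 FPKM in SALK Col-0. The part of the division of reads in these levels and in the differences between replicates was not tested.

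Among other genes of acid growth and wall synthesis, 0 of 8 proton pump, 0 of 9 PP2C.D, 0 of 8 primary wall and 0 of 5 secondary wall genes passed in either direction (limma). The counts of genes without overlap below stand beside 26.2% higher and 20.8% lower among all tested models. Of 11 proton pump genes 8 were tested, with a median difference of 0.04. Of these, AHA5 had 11.7 and 10.4 FPKM in Another Col-0 against 14.2 and 13.1 FPKM in SALK Col-0 (-0.29 ± 0.091, SE), and the lines did not overlap for 1 higher and 2 lower genes. The higher one, AHA10, and AHA8, which overlapped, were each read from a model that holds 2 genes. AHA6 was listed at 0 throughout. All 9 PP2C.D phosphatase genes were tested, with a median of 0.10 and 4 genes higher without overlap, among them PP2C.D3 at 21.7 and 24.3 FPKM in Another Col-0 against 17.1 and 18.7 FPKM in SALK Col-0. Another of the 4, PP2C.D9, was read from a model that holds 2 genes. Primary wall cellulose synthesis genes had a median of 0.10 over 8 tested, with 3 higher and 1 lower without overlap, and the cellulose synthase gene CESA6 had 89.5 and 86.5 FPKM in Another Col-0 against 77.4 and 75.8 FPKM in SALK Col-0. Secondary wall genes had a median of -0.13 over 5 tested, 4 of them lower without overlap, as for CESA4 with 8.96 and 8.85 FPKM in Another Col-0 and 10.8 and 10.2 FPKM in SALK Col-0. In both lines replicate 2 was higher for 5 of 8 tested proton pump genes, 7 of 9 PP2C.D genes, 7 of 8 primary wall genes and 2 of 5 secondary wall genes, against 42.9% of all tested models.

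Markers of other organs were read beside these values. Both tested flower markers had higher values in Another Col-0, with a median difference of 1.22, and there the floral homeotic genes PI and SEP3 had 9.62 and 8.42 FPKM and 35.7 and 30.1 FPKM. In SALK Col-0 PI had 3.21 and 2.86 FPKM and SEP3 had 17.2 and 12.2 FPKM. The other 3 flower markers, AP1, AP3 and AG, stayed under 0.35 FPKM in every library and were not tested. They also had higher values in Another Col-0 without overlap, for AG by a narrow margin (0.152 against 0.149 FPKM in the nearest libraries). The 5 flower markers summed to 46.0 and 39.1 FPKM in Another Col-0 and 20.7 and 15.4 FPKM in SALK Col-0. Neither PI (limma, adjusted p = 0.199) nor SEP3 (adjusted p = 0.220) passed, and the part of floral tissue in the expansin differences was not tested. Root markers had a median difference of -0.01 and summed to 49.97 and 48.5 FPKM in Another Col-0 and 45.6 and 50.1 FPKM in SALK Col-0, with 1 of 3 tested genes apart, the root patterning gene SCR, with higher values, while below the filter PLT1, at 0.464 and 0.509 FPKM in Another Col-0 and 0.762 and 0.739 FPKM in SALK Col-0, and NRT2.1, at 0.0103 and 0 FPKM in Another Col-0 and 0.0653 and 0.0743 FPKM in SALK Col-0, had lower values without overlap. Guard cell and stomatal markers had a median difference of -0.04 and summed to 52.4 and 51.2 FPKM in Another Col-0 and 58.4 and 53.0 FPKM in SALK Col-0, with 1 of 5 apart, the stomatal regulator SPCH, with lower values.

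The gene structure of the members, which are related by choice, was read without a comparison to other genes. In RefSeq their longest transcripts have 2 to 4 exons and coding lengths of 648 to 939 nt, with a median of 774 nt. The 9 members below the filter had a median of 2 exons and a coding length of 822 nt, and the 22 tested a median of 3 exons and 772.5 nt.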

How the data were processed

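RNA of the 4 libraries was read as 101-nt single ends from TruSeq RNA V2 libraries, whose standard protocol leaves strand unmarked. The authors deposited FPKM values per gene model with a lower and an upper limit, per the file headers; per the submitters' processing notes, TopHat, Cufflinks, Cuffdiff and TAIR10 were used, and their versions and roles are not given in the sources used here. Models with a failed or too deep estimate (19) were left out. Models averaging 1 FPKM or more were fitted as log2(FPKM + 1) with limma 3.58.1 (R 4.3.3): line as the only term, a mean-variance trend, two-sided, Benjamini-Hochberg adjustment, threshold 0.05, 2 residual degrees of freedom. The fit was tested on simulated data. An exact permutation test of 2 against 2 libraries cannot go below p = 0.333. Members were matched to RefSeq (31 of 31). Coordinates are those of the table, counted from 1; 30151 of 30152 models that name a single gene overlap that gene in TAIR10.1, from which promoters and transcripts were read. Members with at least 1 FPKM are given by library, and up to 3 genes per other list by smallest p. The members and lists were chosen with earlier results of these data known. Alternatives changed the pseudocount, filter, scaling, trend, replicate block, models tested and libraries.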

Additional observations from a re-analysis of the deposited data

How the results depend on the processing

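No expansin was called over all models, and this held for each pseudocount, filter, scaling and trend tried (0 calls in each), but not with the replicate number as a block. With that replicate block 8 of 22 members were called, 5 higher (EXLA1, EXLA2, EXPA9, EXPA10 and EXPA16) and 3 lower (EXPA1, EXPA8 and EXPB1), at adjusted p-values of 0.0337 to 0.0448 (limma), beside 4624 of all models (22.4%). Among annotated models with the replicate block 10 members were called, with EXPA5 and EXPB3 as further lower ones, beside 8231 models (44.7%). Over all models the calls were 105 with no filter and 11 with annotated models only. Fits with a library left out keep 1 residual degree of freedom, too few to show whether a lack of calls holds. The labels do not say that a number marks a shared day or tray. The deviations of same-numbered libraries had a Pearson r of 0.953 across all tested models and 0.789 across annotated models, a description across genes that share libraries. The median of the members ranged from -0.15 to 0.19 when a library was left out. Direction was kept under every alternative by 11 of 22 members, EXLA1, EXLA2, EXPA1, EXPA5, EXPA6, EXPA8, EXPA9, EXPA16, EXPA20, EXPB1 and EXPB3. The others had differences whose sign turned. Leaving out a library gave -0.24 to 0.29 for EXPA3, -0.39 to 0.15 for EXPA4, -0.12 to 0.27 for EXPA7, -0.074 to 0.55 for EXPA10, -0.44 to 0.23 for EXPA11, -0.15 to 0.17 for EXPA13, -0.24 to 0.38 for EXPA14, -0.12 to 0.28 for EXPA15, -0.18 to 0.12 for EXPA18, -0.11 to 0.025 for EXLA3 and -0.14 to 0.12 for the EXLB1 model. A fit without a library sets both replicate numbers of a line against a single number of the other. The difference between replicate numbers then enters its value. Within both pairs EXPA7, EXPA10, EXPA13 and EXPA15 were higher, and EXPA4, EXPA11 and EXPA18 were lower. EXPA3, EXPA14, EXLA3 and the EXLB1 model had opposite signs in the pairs. EXPA3 was at -0.056 after quantile normalization and EXPA13 at -0.0089 after median scaling. The cause of these last turns was not tested. Read totals were not used, so depth limits could not be set per gene.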

Other observations

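A further 5 expansin genes outside the list were near 0. EXPA21 (AT5G39260) had 0.228 and 0.251 FPKM in Another Col-0 and 0.342 and 0.322 FPKM in SALK Col-0. EXPA25 (AT5G39300) was listed at 0 except for 0.034 FPKM in replicate 2 of SALK Col-0. EXPA19 (AT3G29365), AT5G39290 and EXPB6 (AT1G65681) were listed at 0 in all 4 libraries.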
